A study of Penicillium oxalicum with 6 samples.

Results

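The 30 carbohydrate esterase genes of *Penicillium oxalicum* described here were taken from the study's list of genes changed between the engineered strain GXUR001 and its parental strain TE4-10. A gene was kept where its carbohydrate-active enzyme (CAZyme) entry in that list held a carbohydrate esterase (CE) family. They are 30 of the 191 CAZyme genes in the part of the list at hand, which covers gene IDs from POX_a to POX_d, and 30 of the 11159 features in the expression files. The list was made from the same contrast on the same strains, so the strain difference chose these genes. Their levels and fold changes are therefore given as a description, with no test. Esterase genes that were not on the list, or lie beyond the part at hand, were not analysed here, and neither the study's p-values nor its fold changes were used to set members just inside the list against genes just outside it.

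Both strains derive from a *PoxKu70* deletion strain that overexpresses the glucoamylase gene *PoxGA15A* from the cellulose-inducible *PoxEgCel5B* promoter. TE4-10, labelled WT, came from this line by rounds of random mutagenesis, and GXUR001 is TE4-10 with *PoxCxrC* deleted and *PoxAmyR* (*POX_f08097*) overexpressed. Mycelium was pre-grown in glucose for 24 h and transferred to an enzyme-inducing medium for 24 h, described as wheat bran plus Avicel (microcrystalline cellulose) by the paper and as raw starch alone by the sample labels. The libraries used were replicates 1 to 3 of GXUR001 (n = 3) and replicates 1 and 3 of TE4-10 (n = 2), whose replicate 2 was not analysed here. Values of TE4-10 are given below in the order of replicates 1 and 3, and values of GXUR001 in the order of replicates 1, 2 and 3. *PoxAmyR* and *PoxCxrC* were altered in the same strain, so their parts in any difference cannot be told apart.

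Carbohydrate esterases remove acyl groups from polysaccharides. In plant cell walls, acetyl groups on xylan, mannan and pectin and feruloyl groups on arabinoxylan hinder the enzymes that cut the backbone, and esterases of several families take them off. Some CE families also include enzymes for substrates of the fungus itself. Deacetylases of chitin, a polymer of the fungal wall, are among the enzymes of CE4. CE9 holds deacetylases of *N*-acetylglucosamine-6-phosphate, a step in the use of amino sugars. CE5 holds acetyl xylan esterases as well as cutinases, which hydrolyse the polyester of the plant cuticle.

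The deposited values are FPKM (fragment counts corrected for gene length and for the size of each library), with totals of 1218691 to 1295493 per library. A scaling factor between 0.875 and 1.145, the median ratio of a library to the geometric mean over all 5, was divided out of each library. This moved the median log2 fold change of the 9636 genes tested from -0.26 to 0.00094, and fold changes are relative to that median unless said otherwise. FPKM do not give the number of reads behind a value, so no counting interval is given. The overexpressed *PoxAmyR* (*POX_f08097*) had FPKM of 62.8 and 66.7 in TE4-10, and GXUR001 was higher in each library with 90.6, 84.1 and 74.3. The actin gene *POX_c04656*, which the study used as its reference in RT-qPCR, had a log2 fold change of -0.35 with FPKM as deposited and -0.078 after rescaling. The mycelium was measured in bulk, so less mRNA per cell and fewer expressing cells cannot be told apart.

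After rescaling, 17 of the 30 esterase genes were higher in GXUR001 and 13 were lower, with a median log2 fold change of 0.29. With FPKM as deposited, 15 were higher and 15 lower, with a median of 0.019. The range ran from -1.62 for the putative cutinase *POX_d05326* to 1.92 for *POX_a00229* of family CE9. A log2 fold change of at least 1 was seen in 5 genes, and of -1 or below in 3. In all 30 genes the strains did not overlap after rescaling, against 53.1% of all genes tested (26.7% with GXUR001 above and 26.5% with it below). With FPKM as deposited they did not overlap in 22 of the 30, against 59.5% of all genes (12.6% above and 46.9% below). In a limma test across all genes, 12 of the 30 were called higher and 10 lower at an adjusted p under 0.05, against 9.74% and 8.08% of all genes tested (17.8% together). With FPKM as deposited, 5 were called higher and 13 lower, against 4.8% and 22.8% of all genes (27.6% together). Without GXUR001 replicates 1, 2 and 3 in turn, 10, 0 and 12 of the 30 were called, against 539, 17 and 549 of all genes tested. At an unadjusted p under 0.05 from limma there were 27 of the 30 in all libraries, against 3436 of the 9636 genes tested. Without GXUR001 replicate 2 there were 23 of the 30, against 2299 of all genes tested. Nothing is read from any of these counts, since the contrast had chosen the genes.

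**Figure D1:**
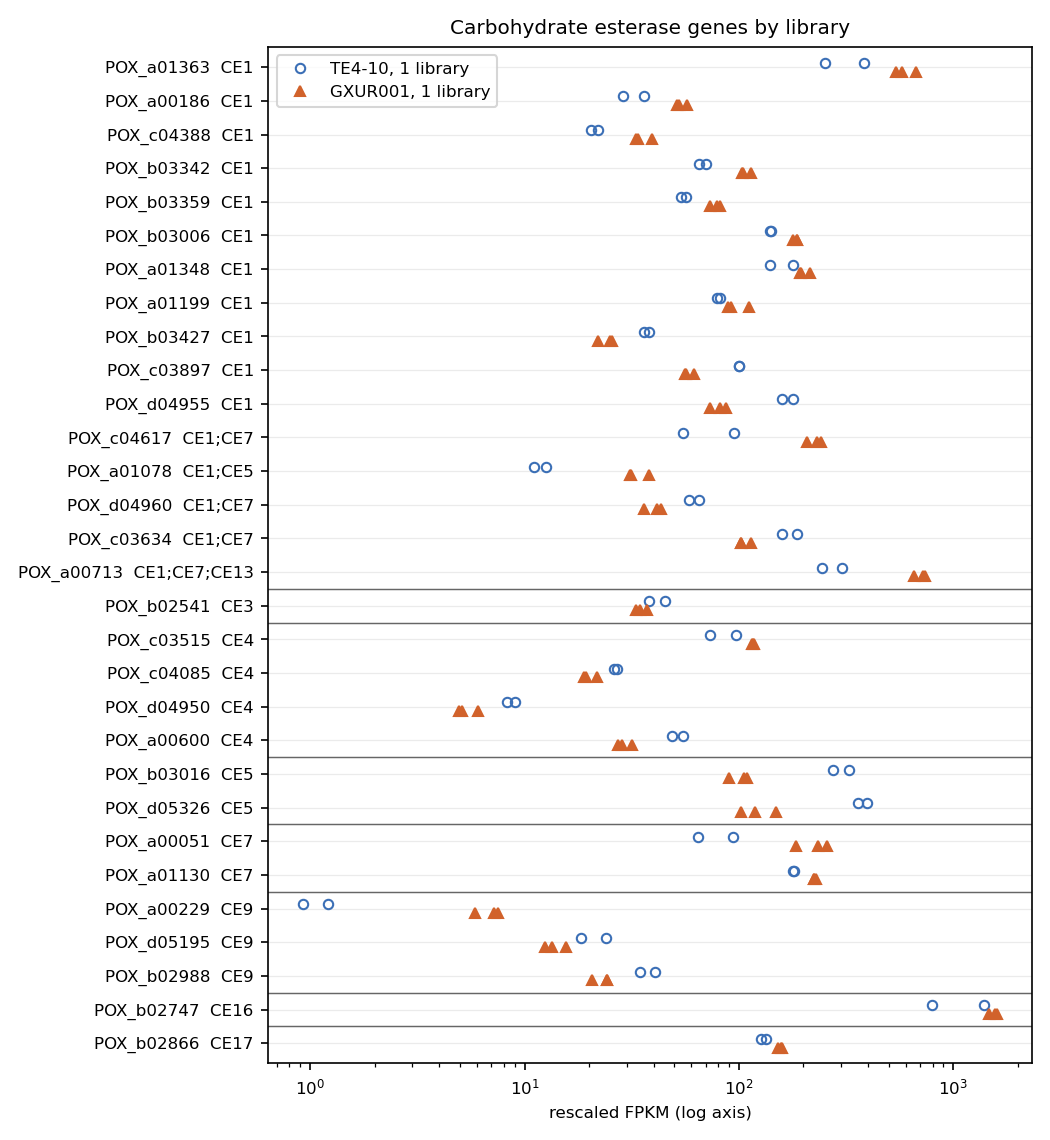
Rescaled FPKM (log axis) of each carbohydrate esterase gene in each library, with open circles for the TE4-10 libraries, filled triangles for the GXUR001 libraries, and lines between CE families. The levels span from 0.928 for *POX_a00229* in TE4-10 to 1604 for *POX_b02747* in GXUR001, and the strains do not overlap in any row.

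Together the 30 genes made up 0.401% and 0.357% of the summed FPKM in TE4-10 replicates 1 and 3, and 0.373%, 0.396% and 0.399% in GXUR001. The group's share of FPKM as deposited thus overlapped between the strains, while its composition differed. After rescaling, the summed FPKM of the 30 genes did not overlap, at 4466 and 3955 in TE4-10 and 5234, 5332 and 5210 in GXUR001. *POX_b02747* alone held 31.2% and 20.2% of the group's FPKM in TE4-10 and 28.3% to 30.1% in GXUR001. The share of the putative cutinase genes was 15.3% and 17.0% in TE4-10 and 3.67% to 4.96% in GXUR001. By mean FPKM, the cutinase genes *POX_d05326* and *POX_b03016* ranked 2 and 4 among the 30 genes in TE4-10 and 10 and 14 in GXUR001. *POX_c04617* ranked 16 in TE4-10 and 4 in GXUR001, and *POX_a00051* ranked 15 and 6.

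The plant-wall esterase with the clearest name in the list is *POX_a00713*, a putative acetyl xylan esterase listed under CE1, CE7 and CE13 with a family 1 carbohydrate-binding module (CBM1). Modules of this kind bind cellulose. It was at 346 and 269 FPKM in TE4-10 and at 630, 678 and 649 FPKM in GXUR001. Every GXUR001 value was thus far above both TE4-10 values. The rescaled mean was 2.58-fold higher. On the log2 scale the difference was 1.37 with a standard error of 0.13, and it stayed between 1.22 and 1.52 when each library was left out in turn. Standard errors here and below are moderated across genes by limma.

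*POX_c04617*, listed under CE1 and CE7 with no function name, had the largest difference among both the CE1 and the CE7 genes. TE4-10 had 62.9 and 105 FPKM of it, and GXUR001 had 203, 220 and 207 FPKM. The GXUR001 libraries lay close together, whereas the TE4-10 libraries differed from each other 1.73-fold after rescaling. The log2 fold change was 1.63 (standard error 0.24). Leaving out TE4-10 replicate 1 gave 1.24, and leaving out TE4-10 replicate 3 gave 2.02. *POX_a00051* (CE7), chosen after its values were seen, was also higher in GXUR001. It was at 74.0 and 103 FPKM in TE4-10 and 226, 215 and 183 FPKM in GXUR001. After rescaling, its libraries differed up to 1.46-fold within TE4-10 and up to 1.40-fold within GXUR001. Its log2 fold change was 1.51 (standard error 0.22), and between 1.24 and 1.77 with each library left out in turn.

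CE7 is a family of acetyl esterases described mainly from bacteria, where members deacetylate xylo-oligosaccharides and cephalosporin C. A gene with several family entries is counted in each of them here. Of the 6 genes with a CE7 entry, 4 were higher and 2 lower in GXUR001. All 6 were called after rescaling, against 9.74% of all genes tested called higher and 8.08% called lower. With FPKM as deposited, *POX_a01130* was not called. Nothing is read from this count, since the contrast had chosen the genes. The summed rescaled FPKM of the 6 CE7 genes was 842 ± 7.88 (SD, n = 2) in TE4-10 and 1529 ± 96.7 (SD, n = 3) in GXUR001. In this sum, opposite differences between the TE4-10 replicates partly cancelled. The rescaled SD in TE4-10 was 40.7 for *POX_a00713*, 28.4 for *POX_c04617* and 20.8 for *POX_a00051*. *POX_a00713* alone had a rescaled mean of 273 in TE4-10 and 705 in GXUR001. The remaining CE7 genes had smaller differences. *POX_a01130*, at 207 and 196 FPKM in TE4-10 and 195 to 222 FPKM in GXUR001, overlapped between the strains as deposited and had a log2 fold change of 0.32 after rescaling. *POX_c03634* and *POX_d04960*, both also listed under CE1, were lower in GXUR001, with log2 fold changes of -0.70 and -0.61.

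CE1 is the largest and most varied family in the list, with 16 genes. It holds acetyl xylan esterases and feruloyl esterases next to esterases with other substrates, and 15 of these 16 genes are listed as hypothetical proteins, so no substrate can be given for them. The 11 genes with CE1 as their only CE family included 8 that were higher in GXUR001 (log2 fold change 0.26 to 0.93) and 3 that were lower. Their median log2 fold change was 0.38 after rescaling and 0.11 with FPKM as deposited. The most abundant of them, *POX_a01363*, was at 289 and 422 FPKM in TE4-10 and 474, 527 and 668 FPKM in GXUR001. Its log2 fold change was 0.93 (standard error 0.21), or 0.63 without TE4-10 replicate 1 and 1.23 without TE4-10 replicate 3. *POX_a00186*, *POX_c04388* and *POX_b03342* followed with 0.72, 0.71 and 0.65, and their strains were also separate as deposited.

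Some of the CE1 genes differed little, and whether the strains overlapped in them rested on the rescaling. *POX_b03359*, *POX_b03006*, *POX_a01348* and *POX_a01199* had log2 fold changes of 0.48, 0.38, 0.34 and 0.26 after rescaling. With FPKM as deposited these were 0.21, 0.11, 0.066 and -0.010, and the strains overlapped in all 4 genes. *POX_a01348* had 0.16 without TE4-10 replicate 1 and 0.51 without TE4-10 replicate 3, and *POX_a01199* had 0.16 without GXUR001 replicate 1. The lower genes stood further from 0. *POX_d04955*, at 204 and 174 FPKM in TE4-10 and 71.4, 80.0 and 73.1 FPKM in GXUR001, was 2.08-fold lower in the rescaled mean. *POX_c03897* and *POX_b03427* had log2 fold changes of -0.77 and -0.60, with TE4-10 replicates that differed by at most 1.06-fold.

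**Figure D2:**
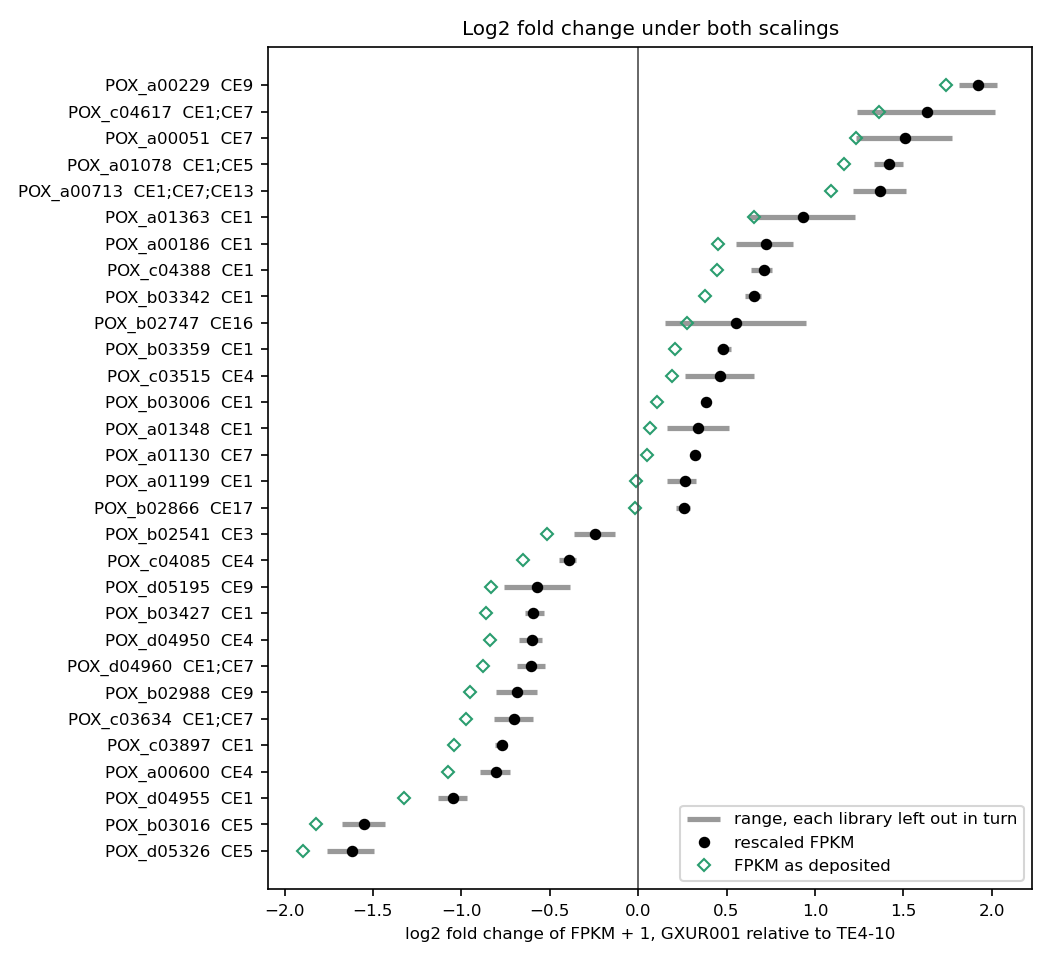
Log2 fold change of FPKM + 1 in GXUR001 relative to TE4-10 for each carbohydrate esterase gene, from rescaled FPKM (filled circles) and from FPKM as deposited (open diamonds), with grey bars for the range when each library was left out in turn. All grey bars stay on 1 side of 0, while *POX_a01199* and *POX_b02866* lie at -0.010 and -0.016 with FPKM as deposited.

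The genes furthest below their TE4-10 level were the putative cutinase genes of family CE5. Cutinases cleave ester bonds in cutin and can also act on other esters. *POX_d05326* was at 412 and 436 FPKM in TE4-10 and at 89.5, 110 and 148 FPKM in GXUR001. *POX_b03016* was at 372 and 301 FPKM in TE4-10 and at 78.7, 96.9 and 108 FPKM in GXUR001. In both genes even the highest GXUR001 library was far below the lowest TE4-10 library. The rescaled mean of *POX_d05326* was 3.06-fold lower in GXUR001, or -1.62 on the log2 scale (standard error 0.17), and that of *POX_b03016* was 2.95-fold lower, or -1.55 (standard error 0.13). With each library left out in turn they stayed between -1.76 and -1.49 and between -1.67 and -1.43.

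The third gene with a CE5 entry, *POX_a01078*, which is also listed under CE1 and has no function name, differed in the opposite direction. It was at 14.4 and 12.2 FPKM in TE4-10 and at 27.5, 28.4 and 37.5 FPKM in GXUR001. Its rescaled mean was 2.83-fold higher in GXUR001, from a level well below that of the cutinase genes.

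*POX_b02747*, a putative carbohydrate acetylesterase of family CE16, was the most abundant of the 30 genes in every library. CE16 enzymes take acetyl groups from short xylan fragments and other acetylated sugars. TE4-10 had 1594 and 877 FPKM of it, and GXUR001 had 1374, 1470 and 1462 FPKM. As deposited, TE4-10 replicate 1 was above all GXUR001 libraries and TE4-10 replicate 3 below them, and after rescaling both were below. The TE4-10 libraries differed 1.74-fold from each other after rescaling, the widest gap among the 30 genes. The log2 fold change of 0.55 (standard error 0.24) became 0.95 when TE4-10 replicate 1 was left out and 0.15 when TE4-10 replicate 3 was, so that the size of the strain difference rested on which parental library was used.

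*POX_b02866*, the gene of family CE17, which is known for acetyl esterases acting on mannan in gut bacteria, was nearly level between the strains as deposited. It was at 154 and 139 FPKM in TE4-10 and at 138, 144 and 152 FPKM in GXUR001, and these values overlapped. Its log2 fold change was 0.26 after rescaling and -0.016 as deposited. *POX_b02541*, the gene of the acetyl xylan esterase family CE3, was at 43.8 and 49.5 FPKM in TE4-10 and at 32.5, 31.6 and 32.9 FPKM in GXUR001. It had the smallest difference of the 30 genes after rescaling (log2 fold change -0.24, standard error 0.11), which was -0.13 without TE4-10 replicate 3.

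Among the CE4 genes, which encode putative deacetylases of chitin, chitin fragments and related polymers, 3 of 4 were lower in GXUR001. The putative chitin deacetylase gene *POX_a00600* was at 62.6 and 53.4 FPKM in TE4-10 and at 23.8, 26.0 and 31.4 FPKM in GXUR001. This gave -0.81 on the log2 scale, with a standard error of 0.11. *POX_d04950*, a putative chitin deacetylase with a chitin-binding module (CBM18), was expressed at a lower level, 10.3 and 9.08 FPKM in TE4-10 and 4.33, 4.70 and 6.0 FPKM in GXUR001. Its log2 fold change was -0.60 (standard error 0.15). The gene of a putative peptidoglycan *N*-acetylglucosamine deacetylase, *POX_c04085*, was at 29.8 and 29.7 FPKM in TE4-10 and at 16.6, 17.8 and 21.7 FPKM in GXUR001, with a log2 fold change of -0.39.

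The most abundant CE4 gene went the other way under both scalings. *POX_c03515*, a putative chitooligosaccharide deacetylase gene, was at 110 and 80.5 FPKM in TE4-10 and at 103, 107 and 114 FPKM in GXUR001. The strains overlapped as deposited, with a log2 fold change of 0.19. After rescaling the log2 fold change was 0.46, or 0.66 when TE4-10 replicate 1 was left out and 0.27 when TE4-10 replicate 3 was. The summed rescaled FPKM of the 4 genes was 172 ± 20.7 (SD, n = 2) in TE4-10 and 171 ± 3.27 (SD, n = 3) in GXUR001. After rescaling the sum thus differed by less than the spread between replicates, although single genes differed. As deposited, the sum was 213.2 and 172.6 FPKM in TE4-10 and 147.2, 155.6 and 173.0 FPKM in GXUR001.

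The CE9 family of *N*-acetylglucosamine-6-phosphate deacetylases held the gene with the largest relative difference. *POX_a00229* was at 1.38 and 1.02 FPKM in TE4-10 and at 6.60, 5.36 and 7.12 FPKM in GXUR001. Its rescaled mean was 6.43-fold higher in GXUR001. On the log2(FPKM + 1) scale, which compresses such low values, the log2 fold change was 1.92 (standard error 0.19), and with a pseudocount of 0.1 it was 2.58. The more abundant CE9 genes were lower in GXUR001. *POX_b02988* was at 46.7 and 38.0 FPKM in TE4-10 and at 21.3, 22.3 and 20.4 FPKM in GXUR001 (log2 fold change -0.68, standard error 0.13), and *POX_d05195* had a log2 fold change of -0.57. The CE9 sum was accordingly 59.9 ± 8.61 rescaled FPKM (SD, n = 2) in TE4-10 and 43.7 ± 0.526 (SD, n = 3) in GXUR001.

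**Figure D3:**
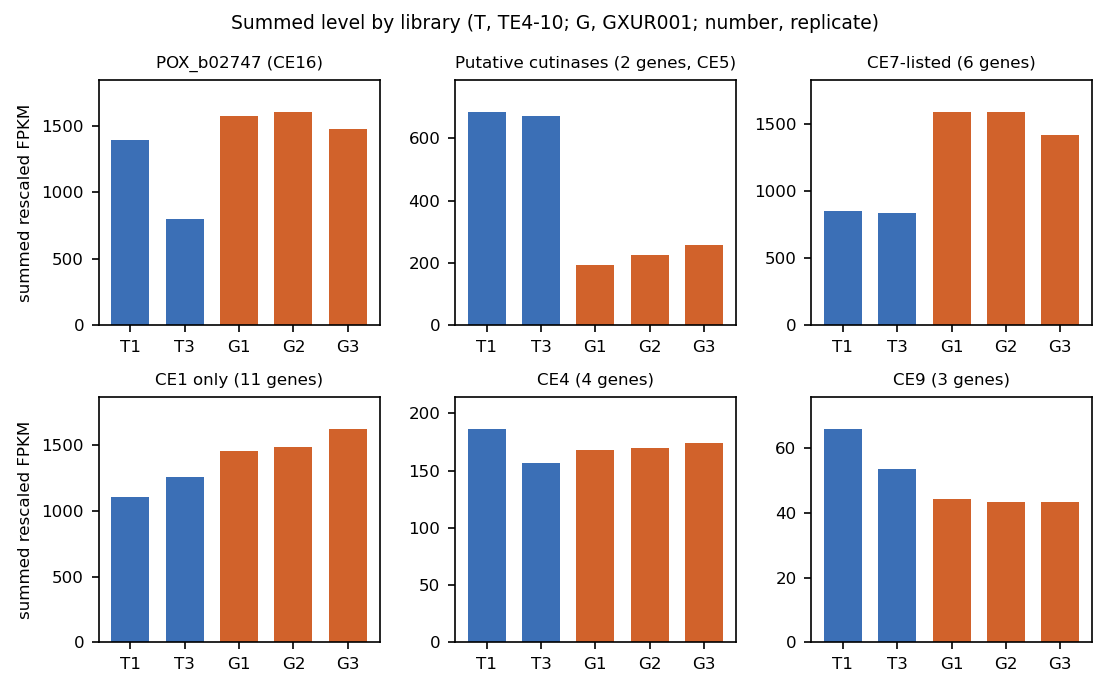
Summed rescaled FPKM in each library (T1 and T3, TE4-10 replicates 1 and 3; G1 to G3, GXUR001 replicates 1 to 3) for *POX_b02747*, the putative cutinase genes, and the genes listed under CE7, CE1 only, CE4 and CE9. The cutinase sum is lower and the CE7 sum higher in every GXUR001 library, whereas the CE4 sum overlaps between the strains.

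Replicates of 1 strain agreed to different degrees among the 30 genes. Between the TE4-10 libraries, the absolute log2 difference after rescaling had a median of 0.17 in the 30 genes and of 0.22 in all genes tested. It passed 1.5-fold in 3 of the 30, namely *POX_b02747*, *POX_c04617* and *POX_a01363*. Between the highest and the lowest GXUR001 library no gene passed 1.5-fold, and the ratio ran from 1.02 in *POX_c03515* to 1.46 in *POX_d05326*.

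The other 161 CAZyme genes of the same list, chosen on the same contrast, had a median log2 fold change of -0.32, with 68 higher and 93 lower in GXUR001. Of the carbohydrate esterase genes 17 were higher and 13 lower, but the difference between these groups was not tested.

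In the gene order of the RefSeq assembly ASM172317v3, few of the 30 genes lay close together. The densest group was *POX_d04950* (CE4), *POX_d04955* (CE1) and *POX_d04960* (CE1 and CE7), which lie in a stretch of 11 measured genes and were all lower in GXUR001. Of the 8 other genes in this stretch, 7 had a log2 fold change below 0 and 1 above it (median -0.24, from -0.85 to 0.26), and none of the 8 passed an adjusted p under 0.05 in the limma test. The direct neighbours of the 30 genes were examined after the values of some had been seen. Of the 52 that were tested, 13 (25%) were called, 10 higher and 3 lower, against 17.8% of all genes tested.

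The log2 fold change after rescaling had the same sign in 31 of the 52 pairs of an esterase gene and a tested neighbour. The share over all adjacent genes was not computed, so nothing is read from this count. The following examples were picked with their values known. Beside the acetyl xylan esterase gene *POX_a00713* lies *POX_a00712*, a putative exo-β-1,3-galactanase gene of glycoside hydrolase family 43, at 88.3 and 70.9 FPKM in TE4-10 and 151, 159 and 167 FPKM in GXUR001. Its log2 fold change of 1.27 was close to the 1.37 of *POX_a00713*. By contrast, the cutinase gene *POX_b03016* is followed by *POX_b03017*, a gene with no known function at 13.3 and 14.6 FPKM in TE4-10 and 65.8, 77.9 and 88.6 FPKM in GXUR001. Its log2 fold change was 2.65, against -1.55 for the cutinase gene. Next to the acetylesterase gene *POX_b02747* lies the endoglucanase gene *POX_b02748*, with a log2 fold change of 1.25. The gene after that, *POX_b02749*, was at 1268 and 622 FPKM in TE4-10 and 1030, 935 and 828 FPKM in GXUR001, and like *POX_b02747* it was, as deposited, highest in TE4-10 replicate 1 and lowest in TE4-10 replicate 3. Whether reads of adjacent genes were shared in the authors' counting was not tested.

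**Figure D4:**
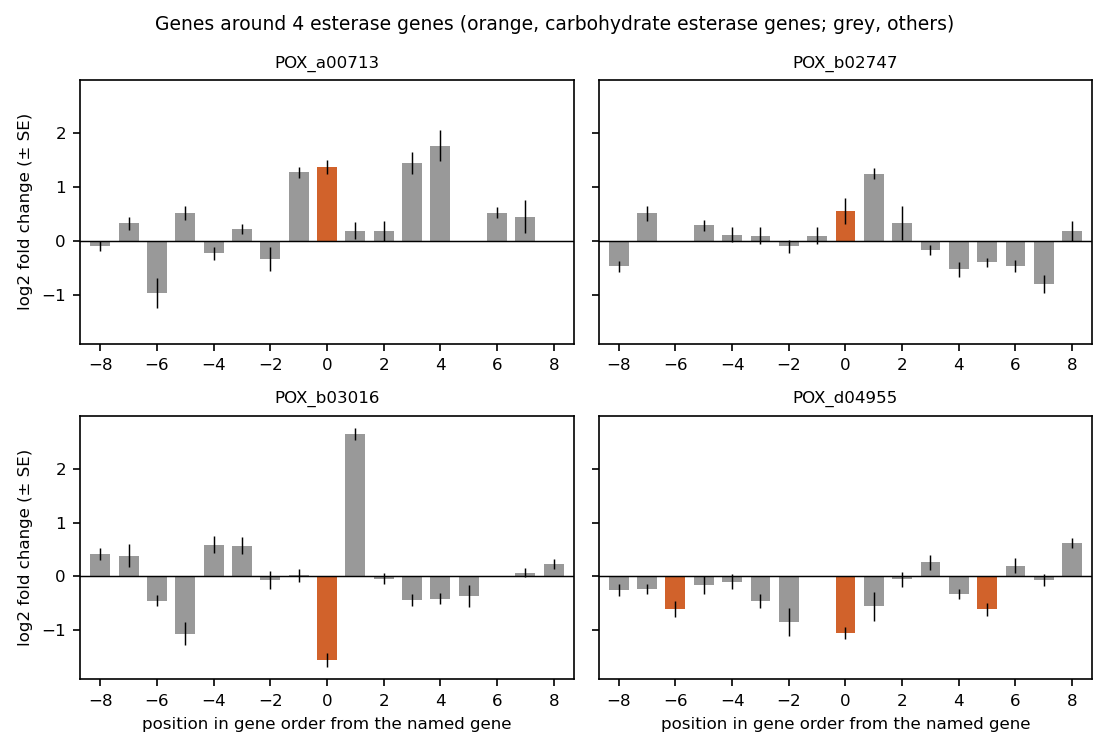
Log2 fold change (bars) with its standard error (lines) of the tested genes up to 8 places before and after *POX_a00713*, *POX_b02747*, *POX_b03016* and *POX_d04955* in gene order, with carbohydrate esterase genes in orange and other genes in grey. *POX_b03016* at -1.55 stands beside *POX_b03017* at 2.65, while *POX_a00713* and *POX_a00712* stand at 1.37 and 1.27.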

How the data were processed

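RNA-seq values of GXUR001 (n = 3) and TE4-10 (n = 2) were used. Samples were grouped by their labels. The authors deposited FPKM, 1 file per library. By the paper, clean reads were matched to the genome of strain HP7-1, and the submitters' processing notes name bcl2fastq and HISAT2. The counting tool, strand handling and annotation version are not given in the sources used here.

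From the deposited FPKM, libraries were rescaled by median ratio, genes averaging 1 FPKM or more were kept (9636, including all 30 esterase genes), log2(FPKM + 1) was taken, and the strains were compared by limma 3.58.1 (eBayes with a trend, 3 residual degrees of freedom) in R 4.3.3. The p-values of all genes tested were adjusted together (Benjamini-Hochberg). The standard errors are those moderated by eBayes, which draws each gene's variance toward a trend over all genes. They are therefore not the spread of a gene's own replicates alone. A fold change on this scale is understated for low FPKM. With 2 libraries against 3, exact permutation cannot reach 0.05, so it was not run. The procedure was tested on simulated data with the same spread for all genes and few changed genes. That setting is simpler than these data, so it does not show how the procedure performs on them.

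The labels do not state separate cultures, but the paper gives biological replicates. The members and lists were chosen with earlier results of these data known. Values in every library were given for genes with a function name, and in each CE family for the most abundant gene and that with the largest log2 fold change. Other genes with such values were picked with those values known. The 3 planned lists by product name were not made, since the reference gene table (assembly ASM172317v3, used for gene order only) held no product names. Family entries were taken from the study's list and not checked against sequences. The alternatives left FPKM unscaled, scaled libraries by their upper quartile (percentile 75), changed the pseudocount to 0.1, raised the filter to a mean of 10 FPKM or dropped it, dropped the trend, added the replicate number as a block, or left out 1 library. Python 3.11.15 with matplotlib 3.10.9 drew the figures.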

Additional observations from a re-analysis of the deposited data

How the results depend on the processing

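The count of esterase genes higher in GXUR001 (17) was 15 to 17 under all alternatives run, with 28 of the 30 genes on the same side of 0 throughout. With FPKM as deposited, *POX_a01199* and *POX_b02866* changed sign (-0.010 and -0.016), 24 other genes moved by more than the spread between replicates, and 2661 genes were called (463 higher) instead of 1718 (939 higher). That setting shifts the median fold change of all genes by 0.26 on the log2 scale. Of the esterase genes, 22 were called (12 higher), and 18 (5 higher) as deposited. With each library left out in turn, 17 to 1836 genes were called in all and 0 to 20 of the esterase genes. Where a TE4-10 library is left out, the spread comes from GXUR001 alone, and the lone TE4-10 library is assumed to vary like it. The lowest counts were those without GXUR001 replicate 2 (2299 genes at an unadjusted p under 0.05). Leaving out GXUR001 replicate 1 or 3 gave 539 or 549 called genes, and leaving out TE4-10 replicate 1 gave 1083. The strains share replicate numbers 1 and 3, and the deviations of same-numbered libraries had correlations of -0.0068 and 0.037 across genes. With 2 TE4-10 libraries, their deviations from the mean mirror each other, so these correlations cannot decide whether the numbers pair the samples. With the replicate block, 0 genes and 0 esterase genes were called by limma, while 2477 and 21 had an unadjusted p under 0.05. That fit leaves 1 residual degree of freedom.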

Other observations

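Genes of chitin metabolism outside the esterase families were also in the study's list, and they differed in both directions. They were chosen on the same contrast, so their values are a description, with no test. Chitin synthases make the polymer that the chitin deacetylases of CE4 act on. The putative chitin synthase gene *POX_b02239* was at 22.7 and 21.7 FPKM in TE4-10 and at 8.93, 9.51 and 10.7 FPKM in GXUR001, a log2 fold change of -0.86 (standard error 0.096). A second putative chitin synthase gene, *POX_a00583*, was at 8.24 and 8.37 FPKM in TE4-10 and at 12.8, 15.5 and 15.4 FPKM in GXUR001, a log2 fold change of 0.99 (standard error 0.11). The strains did not overlap in either gene.

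*POX_b03032*, a putative gene of chitinase, which cuts chitin chains, was at 206 and 216 FPKM in TE4-10 and 247, 248 and 286 FPKM in GXUR001 (log2 fold change 0.58). The putative chitin glucanosyltransferase genes *POX_b02676* and *POX_a00987*, whose enzymes link chitin to glucan in the wall, had log2 fold changes of 0.35 and 0.52. With FPKM as deposited these were 0.074 and 0.25, and the strains overlapped in both genes.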
